A study of Mus musculus with 6 samples.

Results

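Neutrophil proteins and the chemokines that draw neutrophils into tissue were examined as 9 genes, chosen by name, of 23402 in the deposited expression table. They comprise the neutrophil and epithelial antimicrobial proteins S100a8, S100a9 and Lcn2, the chemokines Cxcl1, Cxcl2, Cxcl5 and Ccl20, and the receptors Csf3r and Cxcr2. RNA came from the whole terminal ileum, where the small intestine ends, of 6 mice of 6 weeks of age. They were sampled on day 6 of treatment with dextran sodium sulfate (DSS), a polysaccharide that damages the gut lining. Every animal carried floxed alleles of Il17ra (Il17rafl/fl), the gene of a subunit of the receptor for interleukin-17 (IL-17). In 3 of them Cre recombinase was driven by Atoh1 (Atoh1-cre+, labelled Cre-positive below), and the other 3 were littermates without it (Atoh1-cre-, labelled Cre-negative). Atoh1 is the transcription factor gene of the secretory lineage of the gut (Paneth, goblet and enteroendocrine cells), so absorptive epithelium, stroma and leukocytes lie outside the cells in which this Cre is meant to act. All 6 animals received DSS, and no untreated ileum was analysed here.

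S100A8 and S100A9 form calprotectin, a heterodimer that makes up much of the neutrophil cytosol, binds metal ions and can also be made by injured epithelium. Lipocalin-2, the product of Lcn2, withholds iron by binding bacterial siderophores and is stored in neutrophil granules as well as secreted by gut epithelium. CXCL1, CXCL2 and CXCL5 attract neutrophils through the receptor CXCR2, CCL20 attracts lymphocytes and dendritic cells that carry CCR6, and the receptor encoded by Csf3r binds granulocyte colony-stimulating factor, which drives neutrophil production. IL-17 is known to induce Lcn2 and these chemokines in epithelial and stromal cells, acting together with NF-kB signalling.

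Values are FPKM (fragments divided by transcript length and by sequencing depth), so levels of different genes can be set side by side. Between 16317 and 16547 genes were above 0 in a library, and the value of a single fragment put the depth at about 8220000 to 9670000 fragments. The libraries labelled Cre-negative averaged 6.16 ± 0.324 FPKM of Il17ra and those labelled Cre-positive 7.45 ± 1.22 FPKM (SD, n = 3 each), so this value over the whole gene does not check the labels. Xist and the Y-linked gene Ddx3y placed 2 males and 1 female in the group labelled Cre-negative and 1 male and 2 females in the group labelled Cre-positive. Of the markers of the labelled tissue, the epithelial genes Epcam and Vil1 averaged 580.8 and 649.2 FPKM over the 6 libraries. The bile acid transport genes Fabp6 and Slc10a2, which define the terminal ileum, were low for that tissue in all 6 libraries, from 0.316 to 9.79 FPKM and from 0.0669 to 1.94 FPKM.

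The sequences upstream of 3 of the chemokine genes are shown because they hold the recognition letters of NF-kB, the factor through which IL-17 and microbial signals are known to reach these genes. RefSeq windows of 300 bases around a gene's start (GRCm38.p6) were found for 8 of the 9 members. They were searched on both strands for GGGNNTTTCC, whose reverse complement is GGAAANNCCC. The letters occurred in 3 of the 8 windows and in 1.63% of all 32851 windows of the same length. Cxcl1 and Cxcl2 lie on the plus strand of chromosome 5 with 10755 bases between them. Both hold the run GGGAATTTCC, and each holds a second match, GGAAACACCC in Cxcl1 and GGGCTTTTCC in Cxcl2. Ccl20, on chromosome 1, holds a single match, GGAAAACCCC. No matches overlap each other within a window. The stretches below end at the base before the first annotated start of the gene, run 5′ to 3′ on the plus strand, and carry the matches in capitals. They are chr5:90890995-90891240, chr5:90903649-90903870 and chr1:83116516-83116765. A match describes these letters only.
Cxcl1: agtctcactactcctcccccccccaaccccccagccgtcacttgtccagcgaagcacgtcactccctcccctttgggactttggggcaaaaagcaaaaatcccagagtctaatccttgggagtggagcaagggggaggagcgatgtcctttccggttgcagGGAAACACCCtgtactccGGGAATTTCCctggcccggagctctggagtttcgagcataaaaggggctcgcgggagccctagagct
Cxcl2: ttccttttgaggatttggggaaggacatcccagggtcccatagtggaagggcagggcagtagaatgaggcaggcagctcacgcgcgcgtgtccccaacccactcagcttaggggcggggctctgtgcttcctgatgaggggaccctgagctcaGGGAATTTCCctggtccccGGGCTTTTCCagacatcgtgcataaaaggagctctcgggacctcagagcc
Ccl20: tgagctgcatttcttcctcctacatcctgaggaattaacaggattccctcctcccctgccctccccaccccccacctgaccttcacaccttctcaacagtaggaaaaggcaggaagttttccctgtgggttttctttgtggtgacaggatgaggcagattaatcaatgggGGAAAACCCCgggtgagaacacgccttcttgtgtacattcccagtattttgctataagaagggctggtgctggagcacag

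All 9 members stood at low levels, and only Lcn2 reached 1 FPKM in every library. Averaged over the 6 libraries, Lcn2 (4.08 FPKM) was highest, followed by Ccl20 (2.32 FPKM), S100a8 (2.19 FPKM), S100a9 (1.03 FPKM), Csf3r (0.943 FPKM) and Cxcl5 (0.424 FPKM). Cxcl2 (0.151 FPKM), Cxcr2 (0.136 FPKM) and Cxcl1 (0.132 FPKM) closed the order. Of neighbours in this order, only Csf3r and Cxcl5 had ranges that did not overlap, with Csf3r above Cxcl5 in 6 of 6 libraries. Lcn2 exceeded Ccl20 in 5 of 6 libraries, S100a8 exceeded S100a9 in 5 of 6, and Cxcl5 exceeded Cxcl2 in 5 of 6. The other neighbours kept the order of their means in 1 to 4 libraries. Ccl20 was above S100a8 only in Cre-positive 1, at 5.21 against 0.505 FPKM, and below it in every other library. The mean of Lcn2 was higher than that of 58.1% of the rows of the table, 5640 of which were at 0 in all 6 libraries, and the mean of Cxcl1 was higher than that of 34.5%. Of the 9, 7 were listed above 0 in all 6 libraries, Cxcl2 in 5 and Cxcl1 in 3.

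**Figure D1:**
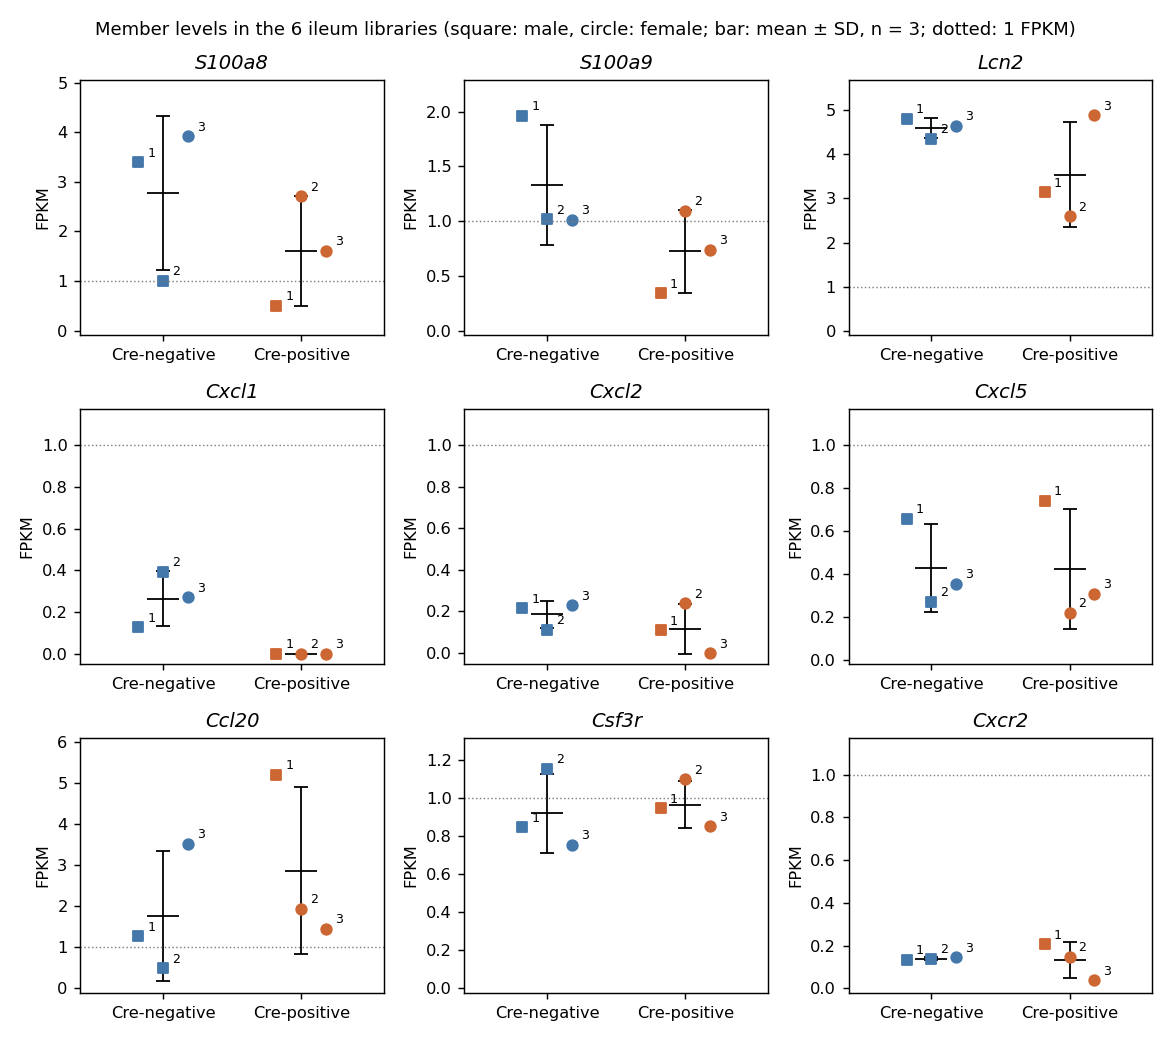
FPKM of each member (vertical axes, scaled per gene) in the 3 libraries labelled Cre-negative and the 3 labelled Cre-positive, numbered as labelled, with squares for males, circles for females, mean ± SD and a dotted line at 1 FPKM. The 2 groups overlapped for every gene but Cxcl1, which was at 0 in all 3 libraries labelled Cre-positive.

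Few fragments lay behind most of these values. The fragments behind a value were estimated from the FPKM, the length of the principal annotated transcript and the estimated depth, and run somewhat high for short transcripts. The estimates for Cxcl5 fell near whole numbers, with about 10, 4 and 5 fragments in Cre-negative 1, 2 and 3 and about 11.1, 3.0 and 4.0 in Cre-positive 1, 2 and 3. Lcn2 rested on about 20.7 to 42.6 fragments per library and Csf3r on 23.6 to 37.6. For S100a9, Cxcl1, Cxcl2, Cxcl5 and Cxcr2, no library held more than about 12 fragments.

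**Figure D2:**
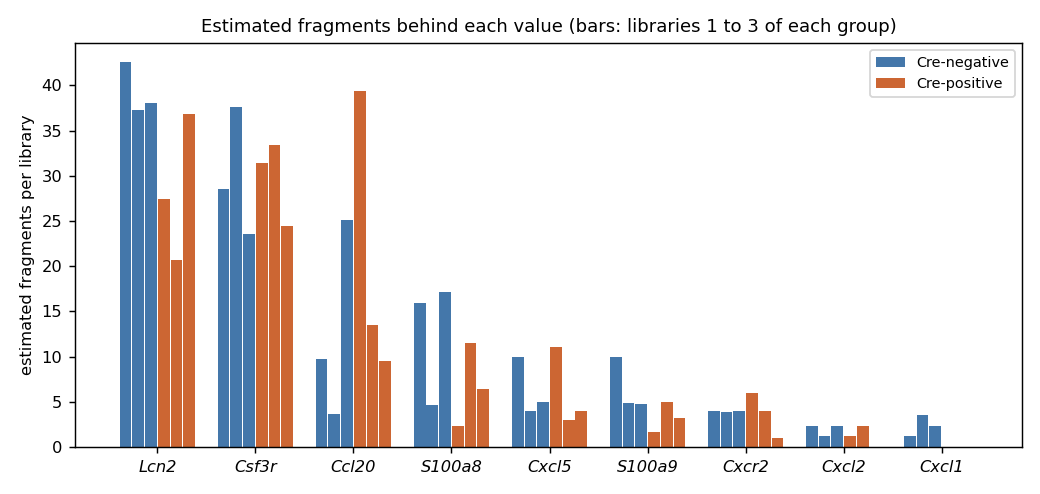
Estimated fragments (vertical axis, linear from 0) behind each member's value, with 1 bar per library in the order Cre-negative 1 to 3 and Cre-positive 1 to 3. Lcn2 and Csf3r rested on more than 20 fragments in each library, and Cxcl1 on at most 3.5.

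The calprotectin genes were lower on average in the libraries labelled Cre-positive, within the spread of the animals. S100a8 (chromosome 3, 90668978 to 90670035, GRCm38) was measured at 3.39, 1.01 and 3.92 FPKM in the animals labelled Cre-negative 1, 2 and 3. Those labelled Cre-positive 1, 2 and 3 had 0.505, 2.71 and 1.61 FPKM. The groups overlapped, since Cre-negative 2 lay within the range of the Cre-positive libraries. The log2 fold change on the log2(FPKM + 1) scale was -0.52 (SE 0.41, 95% interval -1.48 to 0.44, limma adjusted p = 0.998). Leaving out Cre-negative 2 gave -0.93 and leaving out Cre-positive 2 gave -0.83, while the estimate was -0.28 with Cre-negative 3 left out and -0.18 with Cre-positive 1 left out. It turned to 0.45 when limma weighted each library by its closeness to its group mean across genes (array weights). Cre-negative 2 then had the most weight. Within each sex S100a8 was lower in the libraries labelled Cre-positive, at 0.505 FPKM in the 1 male against 1.01 and 3.39 FPKM, and at 1.61 and 2.71 FPKM in the 2 females against 3.92 FPKM. With sex as a term the estimate was -0.82 (limma unadjusted p = 0.0414, adjusted p = 0.999).

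S100a9, the partner gene, lies on the opposite strand 22596 bases further along chromosome 3 (90692632 to 90695721). Cre-negative 1, 2 and 3 had 1.97, 1.02 and 1.02 FPKM of it, and Cre-positive 1, 2 and 3 had 0.340, 1.10 and 0.738 FPKM. Cre-positive 1 was again the lowest library, and the value of Cre-positive 2 fell among those of the other group. The log2 fold change was -0.43 (SE 0.23, 95% interval -0.96 to 0.09, limma adjusted p = 0.998). Leaving out Cre-negative 1 gave -0.25 and leaving out Cre-positive 1 gave -0.26. Adding 1 to the FPKM shrinks changes at this level, and with all libraries and 0.1 added in its place the estimate was -0.85. The ratio of S100a8 to S100a9 ranged from 0.990 to 3.86 in the libraries labelled Cre-negative and from 1.49 to 2.47 in those labelled Cre-positive. These ratios rested on about 2.3 to 17.1 fragments of S100a8 and 1.7 to 9.9 of S100a9 per library. That is too few to tell whether the proportion of the pair varied between animals. The highest other S100 genes of this tissue were S100a10, an annexin partner, at 473.2 FPKM on average, S100a11 at 52.7 FPKM, S100a6 at 33.1 FPKM and S100a1 at 21.1 FPKM. At the other end, S100b (0.611 FPKM), S100a5 (0.0701 FPKM) and S100a3 (0.0645 FPKM), named after their values were seen, averaged less than S100a8 and S100a9, and S100a14 was listed at 0 in all 6 libraries. Of the 12 other S100 genes in the list, 8 were tested and 0 passed the threshold, and their median log2 fold change was 0.14. S100a4, the only member of that list with an unadjusted p under 0.05 and named for that reason, averaged 2.27 ± 0.890 FPKM and 4.37 ± 1.57 FPKM (SD, n = 3 each).

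Hba-a1, an alpha-globin gene that marks red blood cells, was also lowest in Cre-positive 1, at 8.45 FPKM against 19.2 to 24.4 FPKM in the other 5 libraries. The summed level of the 5 matched blood cell markers ran from 21.1 to 31.3 FPKM over the Cre-negative libraries and from 8.79 to 26.8 FPKM over the Cre-positive ones. In Cre-negative 1 that sum included 10.3 FPKM of Hbb-bs, which stood at or under 0.00665 FPKM in every other library. Hba-a1 and Hba-a2 are near-identical copies, so how fragments were shared between them is uncertain. The part of blood content in the calprotectin values was not tested. In whole tissue, fewer cells of a type and less RNA per cell cannot be told apart.

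Lcn2 was uniform in the libraries labelled Cre-negative and spread out in those labelled Cre-positive. Lcn2 (chromosome 2, 32384633 to 32388252) stood at 4.81, 4.36 and 4.65 FPKM in the first group and at 3.15, 2.59 and 4.89 FPKM in the second. Cre-positive 1 and 2 lay below every Cre-negative library, while Cre-positive 3 was the highest of all 6. The log2 fold change was -0.33 (SE 0.18, 95% interval -0.76 to 0.09, limma adjusted p = 0.998). Without Cre-positive 3 it was -0.54, with an unadjusted limma p of 0.00512 and an adjusted p of 0.353, and without Cre-positive 2 it was -0.18. With the Cre-positive group reduced to its library 3, taken to vary like the other group, it was 0.07 (limma adjusted p = 0.980). Cre-positive 1 and 2 are also the libraries with high B cell markers, which summed over 8 genes to as much as 85.7 FPKM there, to 11.9 FPKM in Cre-positive 3 and to 7.58 to 17.3 FPKM in the Cre-negative libraries. The part of that difference in the Lcn2 values was not tested.

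Among the neutrophil-attracting chemokines, Cxcl1 was the one member whose groups did not overlap. Cxcl1 (chromosome 5, 90891241 to 90893115) had 0.127, 0.393 and 0.271 FPKM in Cre-negative 1, 2 and 3 and was listed at 0 in every library labelled Cre-positive. These values corresponded to about 1.2, 3.5 and 2.3 fragments, about 7.0 in all, against 0. The exact permutation p, two-sided, was 0.1, which is the lowest that 3 and 3 animals can give. No fold change is given against a group at 0. Cxcl1 lay under the filter of a mean of 1 FPKM and did not enter the test across genes. When all 17762 genes above 0 in at least 1 library were fitted, its unadjusted limma p was 0.00402 and its adjusted p 0.980, and 1.31% of those genes were lower at an unadjusted p under 0.05. Over these 17762 genes 2.54% were lower and 5.95% higher without overlap, and of the 9 members 1 was lower and 0 were higher. Being lower without overlap was shared by 2.41% of the 5067 genes that were under the filter and above 0 somewhere, and 6.39% of them were higher without overlap. Being at 0 in all libraries labelled Cre-positive and above 0 in all labelled Cre-negative was shared by 19 of these genes (0.375%), and the mirror pattern by 29 (0.572%). The 29 include Wfdc21, a neutrophil whey-acidic-protein gene named after its values were seen, with 0.410, 0.441 and 0.441 FPKM in Cre-positive 1, 2 and 3 and 0 in each Cre-negative library.

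Cxcl2 and Cxcl5, the other ligands of CXCR2, overlapped between the groups. Cxcl2 (chromosome 5, 90903871 to 90905938), whose upstream stretch shares the run GGGAATTTCC with that of Cxcl1, had 0.216, 0.111 and 0.231 FPKM in Cre-negative 1, 2 and 3 and 0.111, 0.240 and 0 FPKM in Cre-positive 1, 2 and 3. These are about 1.2 to 2.3 fragments in each library above 0, and an exact permutation test gave p = 0.6. Cxcl5 (chromosome 5, 90759360 to 90761624), with its values in the same order, had 0.656, 0.270 and 0.354 FPKM against 0.739, 0.219 and 0.307 FPKM (exact permutation p = 1.0). The group means of Cxcl5 were 0.426 ± 0.203 FPKM and 0.421 ± 0.278 FPKM (SD, n = 3 each), and replicate 1 was the highest library in both groups. The 95% interval for the log2 fold change of Cxcl5 in the fit without a filter ran from -0.39 to 0.37 on the log2(FPKM + 1) scale. Adding 1 shrinks changes at levels this low, so the interval does not bound the fold change of the FPKM themselves.

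Ccl20 varied most of the tested members and was higher on average in the libraries labelled Cre-positive. Ccl20 (chromosome 1, 83116766 to 83119167), whose product is made by the epithelium over lymphoid follicles, had 1.27, 0.489 and 3.53 FPKM in Cre-negative 1, 2 and 3. Cre-positive 1, 2 and 3 had 5.21, 1.94 and 1.46 FPKM. Cre-positive 1 was the highest library and Cre-negative 2 the lowest, and the groups overlapped widely. The log2 fold change was 0.52 (SE 0.46, 95% interval -0.55 to 1.59, limma adjusted p = 0.998). The estimate dropped to 0.12 with Cre-positive 1 left out and to 0.15 with Cre-negative 2 left out, and it was 0.95 with Cre-negative 3 and 0.78 with Cre-positive 3 left out. With the Cre-positive group reduced to its library 3 it was -0.01. The sexes went opposite ways, with the 1 male labelled Cre-positive above both Cre-negative males and the 2 females labelled Cre-positive below the Cre-negative female. Cre-positive 1, the library with the most Ccl20 and Cxcl5, held the least S100a8 and S100a9. Ccr6, the receptor gene of CCL20, averaged 0.390 ± 0.348 FPKM and 2.25 ± 1.45 FPKM (SD, n = 3 each). Its highest values, 2.58 and 3.50 FPKM, were in Cre-positive 1 and 2, the libraries high in B cell markers, whereas Ccl20 stood at 1.94 FPKM in Cre-positive 2. Of the 8 markers of follicle-associated epithelium and M cells, 6 were tested and 0 passed the threshold. Their summed level ran from 58.8 to 77.6 FPKM over the Cre-negative libraries and from 68.1 to 83.1 FPKM over the Cre-positive ones. Most of that sum came from genes that other cells also express, led by Tnfrsf11a (24.5 FPKM on average), Anxa5 (19.1 FPKM), Ccl9 (9.24 FPKM) and Marcksl1 (8.99 FPKM). The more specific Spib and Gp2, named after their values were seen, followed the B cell markers. Spib had 8.35 and 10.5 FPKM in Cre-positive 1 and 2 and 2.00 to 2.85 FPKM in the other libraries, and Gp2 had 1.10 and 0.776 FPKM against 0.174 to 0.386 FPKM. Sox8, named for the same reason, was higher without overlap at 0.121 to 0.279 FPKM against 0.0684 to 0.111 FPKM. So were 6.39% of the 5067 genes that, like Sox8, were under the filter and above 0 somewhere. The part of follicle content in the Ccl20 values was not tested.

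The 2 receptor genes differed little between the groups. Csf3r (chromosome 4, 126024550 to 126044440) had 0.848, 1.16 and 0.756 FPKM in Cre-negative 1, 2 and 3 and 0.947, 1.10 and 0.851 FPKM in Cre-positive 1, 2 and 3. The Cre-positive values all fell within the range of the Cre-negative ones. In the fit without a filter its log2 fold change was 0.04 (SE 0.11, 95% interval -0.21 to 0.29, limma adjusted p = 0.982). That is on the log2(FPKM + 1) scale, which shrinks changes at this level. Cxcr2 (chromosome 1, 74153989 to 74161246) had 0.135, 0.138 and 0.146 FPKM against 0.206, 0.149 and 0.0396 FPKM, about 4.0, 3.9 and 4.0 fragments against 6.0, 4.0 and 1.0 (exact permutation p = 1.0). The Cre-negative libraries were nearly equal, and those labelled Cre-positive lay on both sides of them. Cxcr1, the related receptor, was listed at 0 in all 6 libraries.

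No member passed the test between the groups. Of the 9 members, 4 (S100a8, S100a9, Lcn2 and Ccl20) had a mean of at least 1 FPKM and were tested. With limma and Benjamini-Hochberg adjustment over 12695 genes, 0 of the 4 reached an adjusted p of 0.05, where 0% of all genes did. At an unadjusted p under 0.05 the members again numbered 0, against 3.62% of all genes, 1.07% lower and 2.54% higher. These are 136 lower and 323 higher genes, and the split depended on the scaling. It was 207 lower and 288 higher genes when libraries were scaled by median ratios, 219 and 269 with quantile normalization, and 54 and 1119 when every library was given an equal sum. Of the 4, 0 were lower and 0 higher without overlap, against 2.6% and 5.77% of genes tested. The mean FPKM was lower in the Cre-positive libraries for 7 of the 9 members, of which Cxcl5 and Cxcr2 turned after rescaling to an equal sum, and higher for Ccl20 and Csf3r. The median log2 fold change of the 4 was -0.38, beside 0.03 over all genes tested, and it summarises 3 negative estimates and the positive one of Ccl20. Leaving out a library brought no tested member past the adjusted threshold. The residual SD was 0.680 for S100a8 and 0.762 for Ccl20 on the log2(FPKM + 1) scale. It exceeded that of 98.5% and 99.0% of the 3516 tested genes with means from 1 to 5 FPKM, whose median was 0.189. For S100a9 it was 0.323 and for Lcn2 0.263. The genes compared were matched by FPKM and not by fragments. S100a8 and Ccl20, with short transcripts, rested on about 2.3 to 17.1 and 3.6 to 39.4 fragments per library. The part of such low counts in their spread was not tested.

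**Figure D3:**
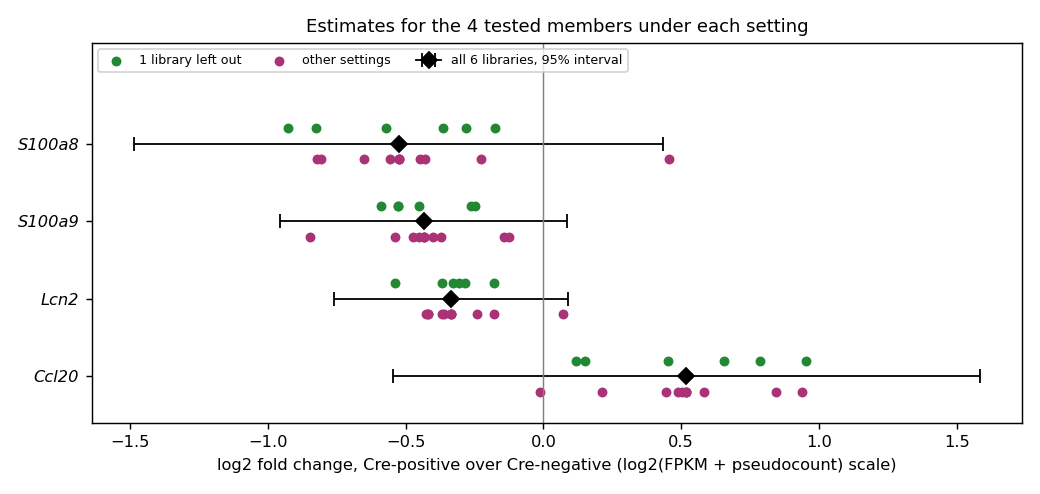
Log2 fold changes (horizontal axis, Cre-positive over Cre-negative) of the 4 tested members with all 6 libraries and their 95% intervals (black), with 1 library left out (green) and under other settings (purple). All 4 intervals include 0, and the S100a8 estimates run from -0.93 to 0.45.

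Among other neutrophil genes, several that neutrophils and their precursors mainly make were at or near 0, while others of the lists were clearly present. Which cells of the whole tissue made those was not tested. Mpo, Elane and Ctsg, enzymes of primary granules, were listed at 0 in all 6 libraries, as were Cxcr1 and Stfa2l1. Prtn3, a further primary granule enzyme named after its values were seen, was above 0 in 5 libraries. It reached 0.431 FPKM at most and averaged 0.125 FPKM in the Cre-negative and 0.278 FPKM in the Cre-positive libraries. The secondary granule genes Ltf, Ngp, Camp and Mmp8, named after their values were seen, stayed under 1 FPKM in every library. Of the 16 granule and antimicrobial genes, 6 were tested, with 3 estimates above and 3 below 0, a median log2 fold change of -0.05 and 0 past the threshold. The highest were Pglyrp1, a peptidoglycan-binding protein (105.6 FPKM on average), Lyz2, the lysozyme of myeloid cells (82.7 FPKM), the gelatinase gene Mmp9 (9.70 FPKM) and the integrin gene Itgam (8.45 FPKM). Lyz2 was the only one with an unadjusted p under 0.05 and averaged 64.3 ± 13.7 FPKM and 101.0 ± 31.1 FPKM (SD, n = 3 each), with overlapping groups. Of the 20 receptor and maturation genes, 18 had a matching row and 6 were tested, with 0 past the threshold and a median of -0.06. Retnlg, a resistin-like gene of mature neutrophils, averaged 7.54 FPKM, G0s2 2.75 FPKM, the decoy receptor gene Il1r2 2.33 FPKM and Slfn4 1.76 FPKM. Of the 18, 1 was lower and 2 were higher without overlap, where 2.54% and 5.95% of the 17762 genes were. G0s2 was the lower one, with 3.05 to 3.62 FPKM in the Cre-negative libraries and 1.37 to 2.74 FPKM in the Cre-positive ones. The higher ones, named after their values were seen, were the receptor genes Trem1, averaging 0.118 and 0.213 FPKM, and Clec4e, averaging 0.0149 and 0.0748 FPKM.

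**Figure D4:**
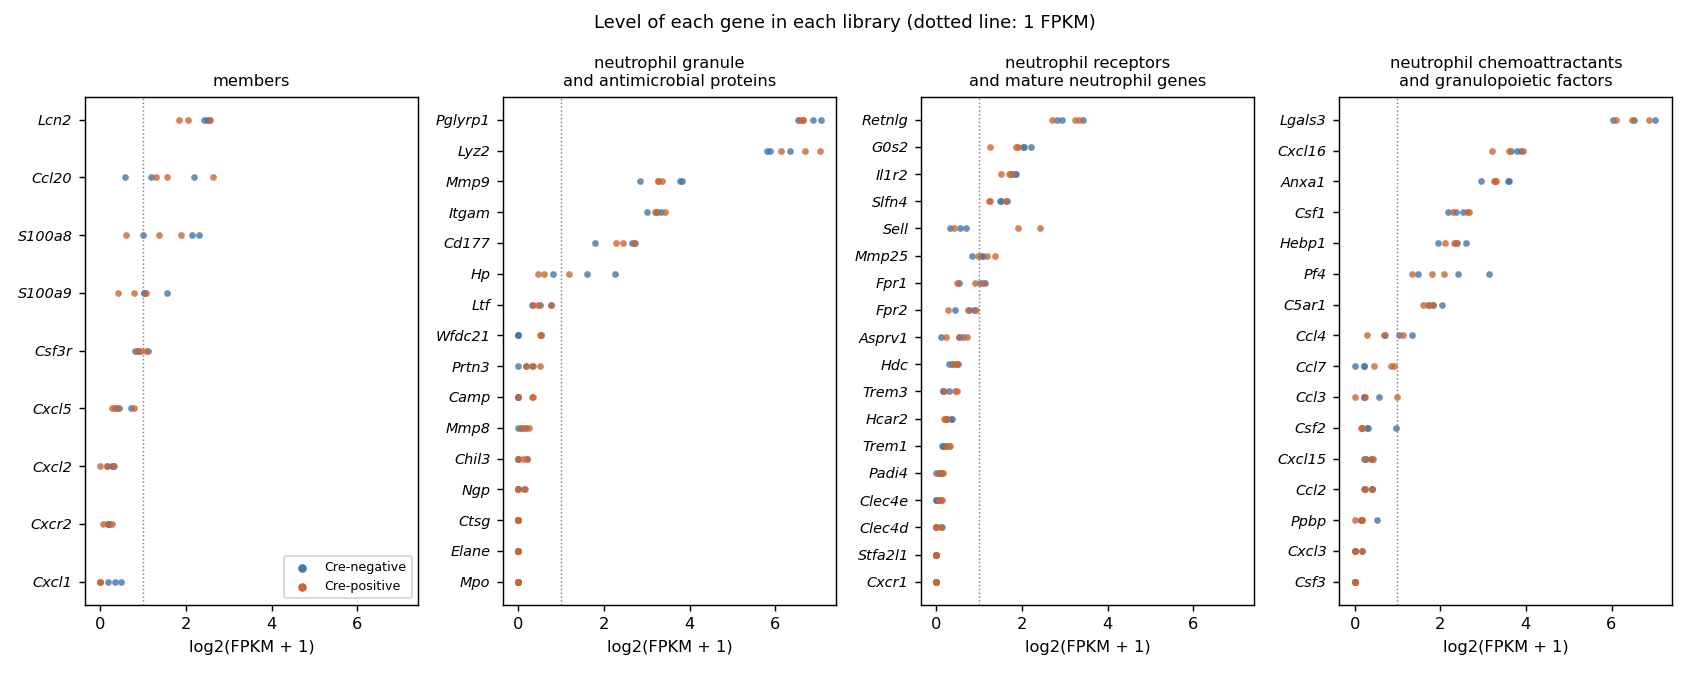
Level of each gene on the log2(FPKM + 1) scale (horizontal axes) in the 6 libraries, for the members and for 3 lists of neutrophil genes and attractants, ordered by mean, with a dotted line at 1 FPKM. Mpo, Elane, Ctsg, Cxcr1, Stfa2l1 and Csf3 sit at 0 in every library, and the groups are intermixed for most genes.

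Of the 16 further attractants and growth factors, 7 were tested, with 6 estimates below 0, a median log2 fold change of -0.10 and 0 past the threshold. Lgals3 (92.5 FPKM on average), the transmembrane chemokine Cxcl16 (12.04 FPKM), Anxa1 (9.13 FPKM) and the macrophage growth factor Csf1 (4.49 FPKM) were highest. Csf3, the ligand of the receptor encoded by Csf3r, was listed at 0 in all 6 libraries. Ccl7, a monocyte attractant, was higher without overlap at 0.367 to 0.883 FPKM against 0 to 0.164 FPKM, and Csf2 was lower without overlap at 0.117 to 0.133 FPKM against 0.229 to 0.942 FPKM. Both were named after their values were seen, and both lay under the filter. Of the 16, 1 was lower and 1 higher without overlap, where 2.54% and 5.95% of the 17762 genes were. Among the scavenging receptors, Ackr3 (4.72 FPKM), Ackr4 (2.94 FPKM) and Ackr1 (2.63 FPKM) were tested together with Ccr6, and 0 of the 4 passed the threshold.

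The listed inducers comprise cytokines and the signalling genes known to act on the members. Il17a, Il17f, Il17c and Il22 were at or under 0.233 FPKM in every library, and Il6 and Osm at or under 0.172 FPKM, all 6 named after their values were seen. Il1b (1.89 FPKM on average), Tnf (1.13 FPKM) and Il1a (1.02 FPKM), named likewise, were above 0 in all 6 libraries and were tested. Of the 16 listed inducers and signalling genes, 9 were tested, with 5 estimates above and 4 below 0, a median of 0.01 and 0 past the threshold. The receptor subunit gene Il17rc averaged 53.9 FPKM, the NF-kB cofactor gene Nfkbiz 25.8 FPKM, the adaptor gene Traf3ip2 11.8 FPKM and Cebpd, a transcription factor of Lcn2 induction, 9.40 FPKM. Markers of monocytes and macrophages had 8 of 8 estimates above 0 with a median of 0.06, summing to 117.2 to 150.5 FPKM and 132.4 to 157.6 FPKM, and 0 passed the threshold. Of 5 eosinophil markers, the granule peroxidase gene Epx was listed at 0 in all 6 libraries. The other 4 were above 0 in all 6, with Prg2 at 3.81, Siglecf at 2.73, Ccr3 at 1.34 and Ear2 at 0.981 FPKM on average. Of 3 matched colon markers, Hoxd13 was listed at 0 in all 6 libraries. The colon marker Car1 had 0.0996 to 1.14 FPKM in the Cre-negative libraries and was listed at 0 in each Cre-positive one, as Cxcl1 was. Within the Cre-negative group, Car1 was lowest and Cxcl1 highest in Cre-negative 2, with about 1.2 to 3.5 fragments of Cxcl1 per library. Aqp8 stayed at or under 0.261 FPKM and averaged higher in the Cre-positive libraries (0.138 against 0.075 FPKM), with overlapping groups. The part of colonic tissue in the Cxcl1 values was not tested.

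The genes whose pattern over the 6 libraries was most like that of a tested member were found by Pearson's r of log2(FPKM + 1) among 4186 genes with a range of at least 0.5. For S100a8 these were Hspa8 (r = 0.985), Ints8 (0.973) and Proser2 (0.930), and for S100a9 Pigyl (0.992), Gsta3 (0.986) and Csrp2 (0.962). For Lcn2 they included Tnfrsf13b (0.956) and Mdk (0.949), and for Ccl20 Upb1 (0.966), Tmem220 (0.961) and Aqp1 (0.954). With 6 libraries, between 5 and 17 of these candidates exceeded 0.9 for a given member, so the leading values are the extremes of many comparisons. None of these genes is a member. Hspa8, the constitutive heat shock cognate gene and the closest to S100a8, was highest in Cre-negative 3 (829.0 FPKM) and lowest in Cre-positive 1 (533.2 FPKM).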

How the data were processed

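Directional libraries (NEBNext Ultra II kit, per the labels' protocols) were sequenced from terminal ileum, 1 for each of 6 mice. The authors deposited 1 table of FPKM values, with 1 column per library. Per the submitters' processing notes, STAR, Cufflinks and Cuffnorm were used beside FastQC, Trimmomatic, bedtools and SAMtools, with the builds GRCm38 and mm10. How libraries were scaled, whether strand was used and all versions were not given in the sources used here. The titles gave groups and numbers. The labels name separate mice but no litters. The members and lists were chosen with earlier results of these data known.

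The 12695 genes whose mean reached 1 FPKM were tested on log2(FPKM + 1) with limma's moderated test and intensity trend, two-sided, Benjamini-Hochberg adjusted, threshold 0.05. The test was also checked on simulated data. Single members were compared by exact two-sided permutation tests. Depth was estimated from the value of 1 fragment in genes with 1 annotated transcript of at least 2000 bases (GENCODE M21). Of 133 list symbols, 118 matched exactly, 10 by an older symbol in the RefSeq table and 5 not at all, among them Ly6g. Named genes were the members, the 3 genes most alike per tested member, the up to 4 highest genes per list, and list genes at 0 or past the threshold; others are said to be named after their values were seen. A result under this rule is left out and not reported here. Alternatives are in the closing section. Versions were limma 3.58.1 in R 4.3.3, and numpy 2.4.6, pandas 2.3.3 and matplotlib 3.10.9 in Python 3.11.15.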

Additional observations from a re-analysis of the deposited data

How the results depend on the processing

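No setting brought a tested member past the threshold, and no member reached a mean of 5 FPKM, so that filter left none to test. S100a8 ranged from -0.93 to 0.45 over 17 settings and reversed with array weights (0.45), which gave Cre-negative 2 a weight of 5.90 and the other libraries 0.388 to 2.46. S100a9 ranged from -0.85 to -0.13 with no reversal. Lcn2 (0.0723) and Ccl20 (-0.0128) reversed with the Cre-positive group reduced to its library 3, which leaves that group 1 sample. Among differences in mean FPKM, Cxcl5 reversed with an equal sum (0.0314) and without Cre-negative 1, Cre-positive 2 or Cre-positive 3 (0.110, 0.0964 and 0.0520), and ranged from -0.164 to 0.110 with 1 library left out. Over the same exclusions Ccl20 ranged from -0.0605 (without Cre-positive 1, reversed) to 1.99, and Csf3r from -0.0356 to 0.164, reversed without Cre-negative 3 or Cre-positive 2 (-0.0208). Cxcr2 ranged from -0.0451 to 0.0383, reversed without Cre-positive 3 and with an equal sum (0.000399).

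Of all genes, 0 passed with all 6 libraries (459 at an unadjusted p under 0.05), 2 with a pseudocount of 0.1, 2 with a pseudocount of 5, 2 with an equal sum, 24 with array weights, 4 with the reduced Cre-positive group and between 0 and 41 with 1 library left out, 41 without Cre-positive 3. The cause of these changes was not tested. Same-numbered libraries did not deviate together from their group means (correlations of -0.13, 0.03 and -0.11, and -0.02 to 0.14 for other pairs). Deviations from means of 3 libraries are tied to each other, so these values cannot tell whether same-numbered animals shared more than a number. With the replicate block 1 gene passed, and S100a8, S100a9, Lcn2 and Ccl20 were at adjusted p = 0.999 by limma. Rescaling to an equal sum moved the median of all genes from 0.03 to 0.13. The sex term was chosen after seeing the data.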
